A study of Mus musculus with 2 samples.

Results

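Ciliated airway cells were picked from a single-cell RNA-seq study of mouse lung epithelium by their transcripts: 886 of the 11245 barcodes that passed the quality filters (7.88%), out of 14048 deposited. A barcode was taken when it had a UMI (a unique molecular identifier, 1 per captured transcript) in at least 3 of Ccdc153, Tmem212, Rsph1, Fam183b, Dynlrb2 and Sec14l3, at least 6 UMIs over these 6 genes, Sftpc under 3% and Scgb1a1 under 10% of its gene UMIs, at least 500 detected genes and at most 20% mitochondrial UMIs. The choice used these readouts, so the levels of the 6 genes, of Sftpc and of Scgb1a1 are described and not tested. All 6 genes were present in 835 of the cells, 5 in 40, 4 in 9 and 3 in 2, with a median of 69 UMIs over the 6. Just inside the limit were 7 cells with 6 to 8 such UMIs, and just outside it 3 barcodes with 3 to 5. Sftpc alone kept out 15 barcodes, Scgb1a1 alone 7 and both together 1. A further 13 barcodes met the gene rule but not the quality filters.

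The cells came from C57BL/6JRj mice aged 3 months (young) or 18 months (old), given saline (control) or lipopolysaccharide (LPS, a bacterial cell wall component, 2.5 mg per kg body weight) and killed 24 h later. No genetic modification is named for any group, and how LPS was given and how many mice were used per library are not stated in the sources used here. Lungs were lavaged, digested with dispase and freed of the agarose-filled airways before mincing, so the airway cells recovered are those that this dissection left behind. Cells were sorted for the epithelial surface protein EpCAM with dead cells excluded, and groups were tagged with separate hashtag antibodies. Equal numbers of cells from the 4 groups shared 1 droplet lane. The experiment was done on 2 lanes, giving 8 libraries, 2 per group. P-values therefore measure the spread between 2 libraries per group.

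Ciliated cells line the conducting airways and carry many motile cilia, whose beating moves mucus and trapped particles out of the lung. The cilium is built on an axoneme of microtubule doublets around a central pair, bent by outer and inner dynein arms and coordinated by radial spokes and the nexin-dynein regulatory complex. Intraflagellar transport carries parts along it, and the transcription factors FOXJ1 and the RFX family drive its genes. Airway epithelium also senses bacterial products, and its interferon-stimulated, acute phase and antigen presentation genes are known to respond to infection.

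The label was checked on Foxj1, which the rule did not use. Foxj1 had a UMI in 95.7% of the ciliated cells (848 of 886), against 0.569% of 8430 alveolar type 2-like (AE2-like) cells and 1.40% of 143 club-like cells from the same libraries. AE2-like cells were taken by surfactant genes and club-like cells by Scgb1a1. Both classes left out barcodes with 2 or more of the rule genes or with a Ptprc UMI. Part of the contrast with them was therefore set by the choice of cells. The median depth was 5550 UMIs and 2547.5 genes per ciliated cell. Besides the rule genes, AU040972, Tuba1a, 1110017D15Rik, Gm19935, Riiad1, 1700007K13Rik and Ccdc113 stood highest over both other classes. Foxj1 was at 763 CPM (UMIs scaled to a common library total) against 0.862 and 0.973 in AE2-like and club-like cells. These are the genes of the cells so chosen, and no test was made on them.

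Genes of centriole building were seen in part of the cells. Deup1, a deuterosome protein, had a UMI in 28% of the ciliated cells (248 of 886) and in 0.0474% of AE2-like cells, and Ccno, a cyclin of multiciliated precursors, in 5.19% against 1.21%. The 21 genes of this list in the tables, 19 of them with a UMI, summed to 667 to 872 CPM per library. Mcidas was seen in 2 cells and Foxn4 in 7, while Gmnc and Cdc20b were seen in 0 of 886, which allows a share of cells with a UMI of up to 0.339%. Mki67, a proliferation marker, had a UMI in 20 cells (2.26%), against 2.02% of AE2-like cells. Cdk1 had one in 23 cells (2.60%) against 0.308%, and Top2a in 8 cells (0.903%) against 0.273%. No cycling is read from such small shares. Sftpc was found in 99.0% of the ciliated cells and Scgb1a1 in 99.1%, and both shares are read as background.

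Libraries held 50 to 262 ciliated cells and 256719 to 1622199 UMIs from them, with the fewest in lane 2 controls (53 and 50 cells). Median UMIs per cell were 4857.5 to 5203.5 in control and 5722.5 to 6659 in LPS libraries, and median mitochondrial shares were 5.23% to 5.94%. No barcode occurred in more than 1 table of a lane. Fibroblast and erythroid genes were at 0. The 7 immune markers summed to 22.9 to 65.8 CPM in controls and 25.2 to 83.8 after LPS, and 7 neutrophil markers to 0 to 3.59 and 1.47 to 37.0. The 10 macrophage markers summed to 298 to 375 and 437 to 502, with 5 to 8 of them at 0. AE2-like cells held at most 46.5 and 129, and club-like cells at most 29.3 and 44.7. Plet1 alone gave 294 to 366 and 375 to 436 in ciliated cells. The 6 neuroendocrine markers summed to 32.3 to 58.3 and 29.4 to 94.3, against at most 0.872 and 2.49 in AE2-like cells. Club-like cells reached 94.0 in controls and 92.2 after LPS. The 8 alveolar type 1 markers summed to 799 to 1160 and 994 to 1324, under AE2-like and above club-like cells. The 10 AE2 markers summed to 2166 to 3258 CPM in controls and 2595 to 7787 after LPS, and the 8 club or secretory markers to 5841 to 8352 and 6421 to 7739. Free RNA of AE2-like cells was estimated from 7 AE2 genes, among them Sftpc, which the rule capped at 3%. Their level in ciliated cells was 0.599% to 0.898% of that in AE2-like cells in control libraries and 2.48% to 5.09% in LPS libraries. Median Sftpc shares per ciliated cell were 0.105% to 0.169% in controls and 0.0847% to 0.145% after LPS. Sftpc was at 1% to 3% in 8 cells. Leaving these out kept the mean ciliated share at 7.29% in controls and lowered it from 8.28% to 8.15% after LPS. Free RNA and droplets mixed with an AE2 cell were not told apart. Estimates for the genes described are given with the acute phase genes.

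The share of ciliated cells differed more between the lanes than between the groups. Young controls held 11% (95% exact binomial interval 9.18% to 13.1%, counting error only) and 3.83% in lanes 1 and 2, young LPS 7.49% and 4.57%, old controls 11% and 3.26%, and old LPS 15.1% and 6.00%. Lane 1 was higher in all 4 groups, by 2.92 to 9.06 points, and the lane means were 11.2% and 4.42%. Group means were 7.44% ± 5.10 in young controls, 6.03% ± 2.07 in young LPS, 7.15% ± 5.49 in old controls and 10.5% ± 6.40 in old LPS (SD, n = 2 each), so that all 4 groups overlap. LPS libraries exceeded controls by 0.988 points (8.28% against 7.29%; two-sided exact permutation p = 0.829, adjusted over 2 tests 0.829). Old libraries exceeded young by 2.10 points (8.84% against 6.74%; exact permutation p = 0.571, adjusted 0.829). The smallest p this design allows is 0.0286. Since the airways were cut away and the groups pooled in equal number, a share is one of the recovered EpCAM-positive cells and not of the lung.

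**Figure D1:**
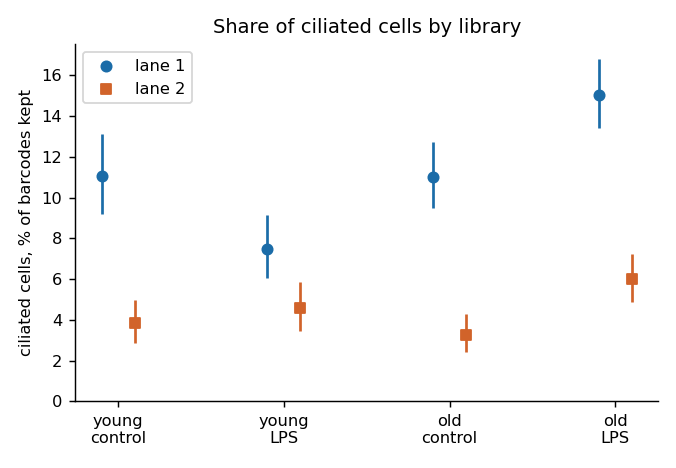
Ciliated cells as a percentage of the barcodes kept, 1 point per library, with exact 95% binomial intervals as bars and the lane given by colour and marker. Lane 1 lies above lane 2 in each of the 4 groups, and the largest value is old LPS in lane 1 at 15.1%.

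LPS changed many genes of the ciliated cells in mice of both ages. UMIs were summed per library and 7770 genes were tested with edgeR's quasi-likelihood test, with Benjamini-Hochberg adjustment over all of them and a threshold of 0.05. In young mice 417 genes rose (5.37% of those tested) and 259 fell (3.33%). In old mice 456 rose (5.87%) and 260 fell (3.35%). Over both ages 760 rose (9.78%) and 578 fell (7.44%). Of the 676 genes called in young and the 716 called in old, 380 were called in both in the same direction (56.2% and 53.1% of the lists) and 1 in opposite directions. These are different libraries. Scaled by library totals alone, without TMM factors, the median gene was lower after LPS by 0.073 to 0.106 on the log2 scale, and the counts became 366 higher and 346 lower in young, 365 and 440 in old and 614 and 841 over both ages. Fold changes below are log2, relative to the TMM centre.

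Antiviral and interferon-stimulated genes rose at both ages. Of 46 members of an interferon response list tested, 38 rose in young, 20 in old and 38 over both ages, and none fell, where 5.37%, 5.87% and 9.78% of all genes rose. Their median log2 fold change was 3.40 in young and 1.23 in old, while the median over all genes tested was -0.00261 and 0.00164. The summed level of its 57 genes with a UMI was 2036 and 1789 CPM in controls and 17509 and 12635 after LPS in young mice, and 2704 and 2033 in controls and 9013 and 7827 after LPS in old mice. Every LPS library lay above every control library. The 2 ages after LPS did not overlap either, with young above old.

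Irf7, the transcription factor that amplifies type I interferon, was at 9.14 and 3.87 CPM in controls and 375 and 364 after LPS in young mice, and at 26.7 and 34.7 in controls and 186 and 159 after LPS in old mice. The log2 fold change was 5.60 ± 0.31 (SE, adjusted p = 5.4e-15) in young and 2.60 ± 0.23 (SE, adjusted p = 7e-10) in old. The LPS libraries lay above the controls at each age, and young LPS above old LPS. Old controls lay above young controls, a difference that did not pass the test.

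Igtp, an interferon-inducible GTPase that acts on vacuoles holding pathogens, was at 1.83 and 0 CPM in controls and 377 and 233 after LPS in young mice, and at 9.7 and 3.85 in controls and 38.9 and 59.3 after LPS in old mice. Its young controls held 1 UMI in all, so the rise in young is given as a ratio of summed CPM, 244 (95% counting interval 43.4 to 9669.7); in old it rose by 2.45 ± 0.46 (SE, adjusted p = 0.00042). Gbp2, a guanylate-binding protein of the same defence, was at 3.66 and 11.6 CPM in controls and 490.2 and 346 after LPS in young mice, and at 9.7 and 7.71 in controls and 61.6 and 74.9 after LPS in old mice. It rose by 6.04 ± 0.35 (SE, adjusted p = 1.6e-14) in young and 2.82 ± 0.38 (SE, adjusted p = 2.2e-06) in old. Zbp1, a sensor of foreign nucleic acid, was at 3.66 and 0 CPM in controls and 268 and 182 after LPS in young mice, and at 13.3 and 0 in controls and 121 and 81.1 after LPS in old mice. With 2 control UMIs in young its ratio there was 89.3 (95% counting interval 24.4 to 743), and in old it rose by 3.37 ± 0.44 (SE, adjusted p = 3.2e-05). Young LPS lay above old LPS for each of the 3 genes, and LPS above control at both ages.

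Ifitm3, Lgals3bp and Ifi27 rose at both ages, and the levels of Ifitm3 after LPS overlapped between the ages. Ifitm3, a membrane protein that blocks viral entry, was at 510.0 and 406 CPM in controls and 6722 and 4747 after LPS in young mice, and at 406 and 447 in controls and 5275 and 3968 after LPS in old mice. The rise was 3.63 ± 0.19 (SE, adjusted p = 8.1e-09) in young and 3.45 ± 0.19 (SE, adjusted p = 2.4e-08) in old. Lgals3bp rose by 2.20 ± 0.19 (SE, adjusted p = 1.9e-08) in young and 1.76 ± 0.18 (SE, adjusted p = 3.3e-07) in old, and Ifi27 by 1.72 ± 0.20 (SE, adjusted p = 6.7e-08) in young and 1.42 ± 0.18 (SE, adjusted p = 7.8e-07) in old. The LPS libraries did not overlap the controls for any of the 3. Iigp1, a further GTPase, was at 9.14 and 0 CPM in controls and 1741 and 779 after LPS in young mice, and at 18.2 and 3.85 in controls and 90.2 and 209 after LPS in old mice: its call in young (7.64 ± 1.15 SE, adjusted p = 0.03) was lost when any of the 4 control libraries or young LPS 1 was left out, with young control 1 giving the largest value (adjusted p = 0.21) and with lane in the fit (adjusted p = 0.076). Isg15 and Ifit1 did not pass in either age. Isg15, a ubiquitin-like modifier, was at 21.9 and 3.87 CPM in controls and 651 and 573 after LPS in young mice, and at 126 and 0 in controls and 179 and 153 after LPS in old mice, with old control 1 far above old control 2. Gm4951, F830016B08Rik and the Ifit3 and Tgtp pairs have near-identical relatives whose reads the counting may have split, and their values are uncertain.

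Sequence before the start of these genes is shown because it is where interferon-activated factors are known to bind. A core of the interferon-stimulated response element, GAAA and GAAA with 2 bases between on either strand, lay in the 250 bases before the RefSeq start of 20 of 43 list genes with a promoter entry (46.5%), of 3 of 20 genes of MHC class I (15%) and of 3.46% of 27025 genes. Capitals mark the match in Igtp at chr11:58199306-58199555 (plus strand), Gbp2 at chr3:142620413-142620662 (plus strand) and B2m at chr2:122147437-122147686 (plus strand), assembly GRCm38.p6, each written 5′ to 3′ on the gene's strand. A match describes these letters only.
Igtp: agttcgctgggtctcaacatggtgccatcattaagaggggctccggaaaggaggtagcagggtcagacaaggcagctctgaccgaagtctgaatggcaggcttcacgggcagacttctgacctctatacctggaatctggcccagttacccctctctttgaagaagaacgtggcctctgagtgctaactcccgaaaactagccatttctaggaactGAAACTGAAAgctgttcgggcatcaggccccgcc
Gbp2: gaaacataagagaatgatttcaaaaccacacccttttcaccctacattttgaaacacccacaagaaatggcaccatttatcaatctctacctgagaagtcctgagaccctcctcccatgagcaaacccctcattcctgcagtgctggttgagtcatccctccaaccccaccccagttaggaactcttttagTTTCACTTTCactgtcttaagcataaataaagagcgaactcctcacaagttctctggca
B2m: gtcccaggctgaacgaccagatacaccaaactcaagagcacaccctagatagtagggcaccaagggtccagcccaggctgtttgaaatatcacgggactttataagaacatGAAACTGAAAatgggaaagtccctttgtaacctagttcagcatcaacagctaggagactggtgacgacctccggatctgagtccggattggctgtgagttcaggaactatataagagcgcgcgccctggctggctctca

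For some of these genes the response was smaller in old mice. Of the 46 members, 27 were lower in old LPS than in young LPS and none was higher, where 0.875% of all genes were lower (68) and 0.257% higher (20); leaving out young LPS 1 left 12. The test of the difference itself, the age by LPS interaction, called 9 members, all with the smaller change in old, where 0.154% of all genes were called in that direction (12) and 0.0901% in the other (7). They included Ifit3b, Ifi47, Igtp, Irgm1, Oasl2, Irf1, Irf7 and Rtp4. The difference was -3.0 ± 0.51 (SE, adjusted p = 0.0031) for Irf7. These calls lean on single libraries: without old control 1, which is the larger of the old controls, none of the 9 passed (adjusted p = 0.1 for Irf7). Without young control 1 the list had 1 call. DESeq2 called 4 list members. The calls also depended on the cells kept. With high-UMI and immune-marker cells removed, the interaction was called for 7 of all genes, 3 higher and 4 lower. At most 4 of the 9 therefore remained.

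Old and young were also compared directly after LPS. The old minus young difference was -2.67 ± 0.19 (SE, adjusted p = 2e-11) for Gbp2, -2.40 ± 0.26 (SE, adjusted p = 2.2e-07) for Gbp3 and -2.75 ± 0.23 (SE, adjusted p = 8.1e-09) for Igtp, and these calls stood in all 18 alternatives. Socs1, an inhibitor that interferon induces against its own signal, was at 5.48 and 3.87 CPM in controls and 132 and 65.6 after LPS in young mice, and at 7.28 and 3.85 in controls and 8.43 and 15.6 after LPS in old mice. It differed by -3.23 ± 0.36 (SE, adjusted p = 3.4e-07), also in all 18. Cd274, which encodes the immune checkpoint ligand PD-L1, was at 1.83 and 0 CPM in controls and 90.1 and 62.7 after LPS in young mice, and at 3.64 and 3.85 in controls and 12.3 and 10.9 after LPS in old mice. It differed by -2.69 ± 0.35 (SE, adjusted p = 6e-06); without young LPS 1 its adjusted p was 0.058. Young LPS also lay above old LPS in the AE2-like cells of these libraries, where Irf7 was at 2.53 and 2.31 CPM in controls and 95.1 and 77.1 after LPS in young mice, and at 3.66 and 2.4 in controls and 51.7 and 46.3 after LPS in old mice. Igtp was at 6.83 and 5.48 CPM in controls and 260.1 and 211 after LPS in young mice, and at 7.32 and 5.51 in controls and 44 and 68.9 after LPS in old mice, values without TMM scaling. No age difference was tested in those cells.

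**Figure D2:**
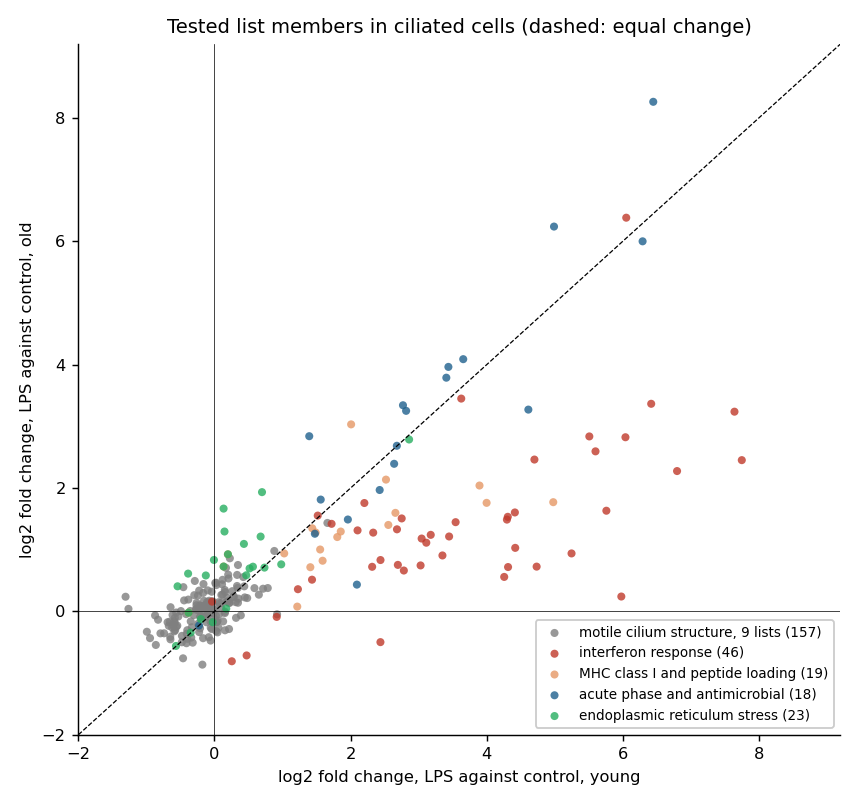
Log2 fold change of LPS against control in young (x axis) and old mice (y axis), 1 point per tested list member, with the dashed line marking equal change. Interferon genes (median 3.40 in young, 1.23 in old) lie mostly below the line, acute phase genes (medians 2.73 and 3.05) near it, and motile cilium genes around 0.

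The spread over cells was wide within each LPS library. The 10th percentile of the summed list was 0.687% and 0.390% of a cell's UMIs in young LPS and 0.427% and 0.183% in old LPS. Medians were 0.175% and 0.163% in controls and 1.66% and 1.02% after LPS in young mice, and 0.184% and 0.173% in controls and 0.829% and 0.628% after LPS in old mice. Thinned to 2000 UMIs per cell, with 1 to 8 shallower cells left out per library, the medians were 0.15% and 0.15% in controls and 1.65% and 1.0% after LPS in young mice, and 0.2% and 0.15% in controls and 0.8% and 0.65% after LPS in old mice. In both young LPS libraries and in old LPS 1 the 10th percentile exceeded every control median, and in old LPS 2 it did not reach the highest of them, 0.184%. Cells of 1 library are not replicates, so these are descriptions.

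**Figure D3:**
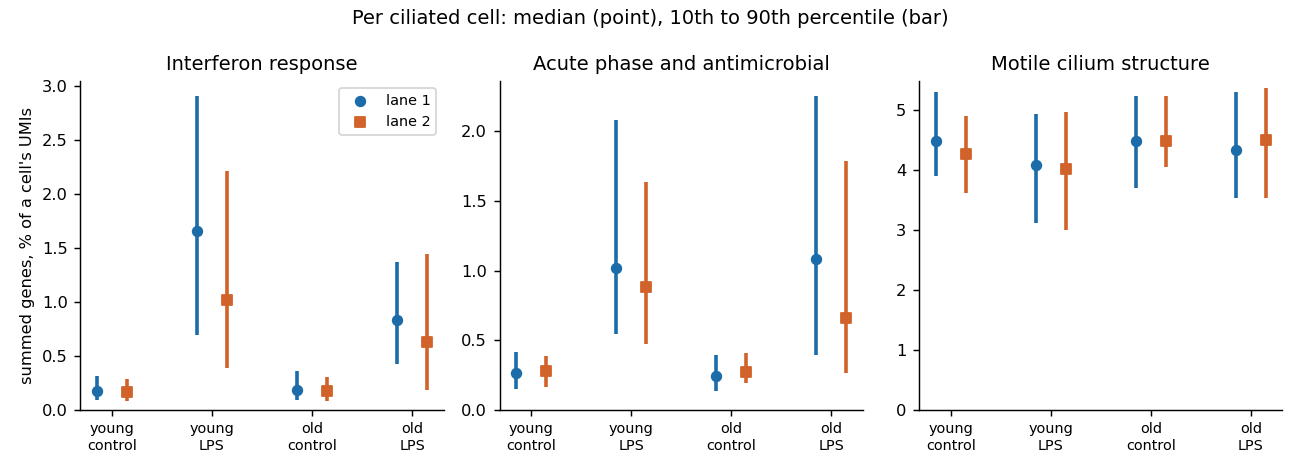
Summed UMIs of a list as a percentage of a cell's UMIs, with the median over cells as a point and the 10th to 90th percentile as a bar, per library and lane. The interferon medians rise from 0.163% to 0.184% in controls to 0.628% to 1.66% after LPS, while the motile cilium medians stay between 4.02% and 4.51%.

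Genes of MHC class I and peptide loading rose at both ages. Of 19 members tested, 14 rose in young, 14 in old and 16 over both, and none fell, where 5.37%, 5.87% and 9.78% of all genes rose. They had medians of 1.59 and 1.28. B2m, the light chain of class I, was at 117 and 81.2 CPM in controls and 723 and 456 after LPS in young mice, and at 86.1 and 84.8 in controls and 356 and 404 after LPS in old mice. Its increase was 2.52 ± 0.21 (SE, adjusted p = 9.7e-10) in young and 2.14 ± 0.21 (SE, adjusted p = 3.3e-08) in old. H2-K1, a heavy chain, was at 314 and 332 CPM in controls and 1009.6 and 725 after LPS in young mice, and at 287 and 297 in controls and 657 and 833 after LPS in old mice. It rose by 1.44 ± 0.16 (SE, adjusted p = 3.9e-08) in young and 1.35 ± 0.15 (SE, adjusted p = 1.3e-07) in old. No LPS library overlapped a control for either gene.

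Psme1, a proteasome activator subunit, was at 174 and 162 CPM in controls and 582 and 603 after LPS in young mice, and at 173 and 162 in controls and 394 and 387 after LPS in old mice. The rise was 1.80 ± 0.15 (SE, adjusted p = 1.6e-10) in young and 1.21 ± 0.15 (SE, adjusted p = 3.7e-07) in old. Psmb9, an immunoproteasome subunit, was at 5.48 and 19.3 CPM in controls and 377 and 257 after LPS in young mice, and at 23 and 3.85 in controls and 64.2 and 59.3 after LPS in old mice. It was the 1 member with a smaller response in old, by -3.21 ± 0.69 (SE, adjusted p = 0.046), a call lost without young control 1 (adjusted p = 0.47), young LPS 1 (0.064) or old control 1 (0.99). After LPS 8 of the 19 members were lower in old than in young (2 without young LPS 1), where 0.875% of all genes were lower. Of 6 MHC class II genes, 3 rose in young, where 5.37% of all genes rose. Among them was H2-DMb1, a peptide-loading chaperone, at 25.6 and 27.1 CPM in controls and 124 and 98.5 after LPS in young mice, and at 27.9 and 23.1 in controls and 29.8 and 48.4 after LPS in old mice. Its log2 fold change was 2.10 ± 0.34 (SE, adjusted p = 3.2e-05). The other two were H2-Eb1 and H2-DMa, and 1 call was left without young control 1 or young LPS 1. Free AE2 RNA would give 20.5% to 36.3% of the H2-Eb1 level after LPS, 14.3% to 42.6% of H2-DMa and 8.94% to 27% of H2-DMb1; with it subtracted, 2 of the 3 calls remained and H2-Eb1 had an adjusted p of 0.07. In old none of the 6 passed, and the interaction was not called for any. The 11 class II genes with a UMI summed to 603 and 230 CPM in old controls and 544 and 1234.5 after LPS in old mice. Old control 1 thus lay above old LPS 1 and far above old control 2. Monocyte and dendritic markers (10 genes, 4 to 10 of them at 0) summed to 0 to 14.9 CPM in controls and 2.80 to 62.3 after LPS. Their part in the result was not tested.

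Secreted defence and acute phase genes rose at both ages. Of 18 tested, 9 rose in young, 9 in old and 12 over both ages, where 5.37%, 5.87% and 9.78% of all genes rose. None fell, and none was called for the interaction. Lcn2, Chil1 and C3, of the 12, have large free RNA estimates, given with Lcn2. Orm1, an acute phase plasma protein, was at 31.1 and 15.5 CPM in controls and 2445 and 1617 after LPS in young mice, and at 27.9 and 50.1 in controls and 2606 and 1754 after LPS in old mice. Its increase was 6.29 ± 0.48 (SE, adjusted p = 0.00085) in young and 6.0 ± 0.45 (SE, adjusted p = 0.00076) in old. Orm2, a near copy, makes its exact level uncertain. Cp, the ferroxidase ceruloplasmin, was at 85.9 and 77.3 CPM in controls and 2472 and 2109 after LPS in young mice, and at 150.4 and 200.4 in controls and 2847 and 2036 after LPS in old mice. It rose by 4.79 ± 0.19 (SE, adjusted p = 4.6e-16) in young and 3.86 ± 0.17 (SE, adjusted p = 4.1e-15) in old; among controls it was higher in old (1.02 ± 0.22 SE, adjusted p = 0.036), a call lost when any of the 4 control libraries was left out (0.34 without young control 1). The LPS libraries lay above all controls by a wide margin for both.

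Hp, the haemoglobin-binding protein haptoglobin, was at 1398 and 1218 CPM in controls and 3806 and 3950.3 after LPS in young mice, and at 1039 and 1117 in controls and 3515 and 4046 after LPS in old mice. The rise was 1.56 ± 0.12 (SE, adjusted p = 1.1e-11) in young and 1.81 ± 0.12 (SE, adjusted p = 4.2e-13) in old. Lbp, which hands LPS to its receptor complex, was at 249 and 197 CPM in controls and 861 and 916 after LPS in young mice, and at 246 and 369.9 in controls and 967 and 671 after LPS in old mice. Its increase was 1.96 ± 0.21 (SE, adjusted p = 5.8e-06) in young and 1.49 ± 0.19 (SE, adjusted p = 6.3e-05) in old. Lrg1 rose by 3.28 ± 0.24 (SE, adjusted p = 3.5e-12) in young and 4.19 ± 0.23 (SE, adjusted p = 4.1e-15) in old. For all 3 the LPS libraries did not overlap the controls. Cxcl17, a mucosal chemokine, was at 639.8 and 715 CPM in controls and 2361 and 2617 after LPS in young mice, and at 497 and 689.7 in controls and 2264 and 2117 after LPS in old mice. It rose by 1.88 ± 0.14 (SE, adjusted p = 5.4e-12) in young and 1.92 ± 0.14 (SE, adjusted p = 3.8e-12) in old. Cxcl17 did so in all 18 alternatives.

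The membrane mucins of the airway surface also moved. Muc4, which coats cilia, was at 62.2 and 65.7 CPM in controls and 364 and 316 after LPS in young mice, and at 72.8 and 65.5 in controls and 309 and 236 after LPS in old mice. The rise was 2.43 ± 0.21 (SE, adjusted p = 3e-10) in young and 1.97 ± 0.19 (SE, adjusted p = 4.7e-09) in old. Muc1 was at 11 and 30.9 CPM in controls and 189 and 197 after LPS in young mice, and at 15.8 and 3.85 in controls and 244 and 145 after LPS in old mice. Its increase was 3.44 ± 0.43 (SE, adjusted p = 3.4e-05) in young and 3.96 ± 0.39 (SE, adjusted p = 2.8e-06) in old. Both were higher in every LPS library than in any control. Pigr, which carries antibodies across the epithelium, was at 36.6 and 19.3 CPM in controls and 490.2 and 274 after LPS in young mice, and at 21.8 and 34.7 in controls and 537 and 309 after LPS in old mice; its call in old (4.09 ± 0.57 SE, adjusted p = 0.013) was lost without old control 1 (adjusted p = 0.21) and without any other single control library.

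Some of these genes are so abundant in AE2-like cells after LPS that free RNA could hold much of the reading. Scaled by the 7 AE2 genes, free AE2 RNA would give 45.6% to 83.2% of the Lcn2 level in ciliated cells of the LPS libraries, 56.8% to 90.1% of Chil1, 25.6% to 55.7% of C3, 27.5% to 49.6% of Cd14 and 48.6% to 169.8% of Saa3. For the neutrophil chemokines it would give 49.3% to 179% of Cxcl1, 116% to 184% of Cxcl2 and 33.2% to 103% of Cxcl5. Lcn2, an iron-withholding antimicrobial protein, was at 503 and 433 CPM in controls and 4902 and 5126 after LPS in young mice, and at 439 and 416 in controls and 5042 and 6854 after LPS in old mice. Its fold change was 3.41 ± 0.14 (SE, adjusted p = 4.9e-18) in young and 3.79 ± 0.14 (SE, adjusted p = 2.4e-19) in old, and after subtraction of the estimate the adjusted p was 0.19 in young and 0.061 in old. Estimates were 18% to 44.4% for Lrg1, 9.8% to 20.6% for Icam1, 5.48% to 19.8% for Muc1, 7.43% to 17.4% for Gbp2 and 10.3% to 17.2% for Hp. They were 9.39% to 16.6% for H2-K1, 3.33% to 16% for Psmb9, 4.16% to 24.6% for Relb, 7.13% to 25% for Birc3 and 0.616% to 37% for Ccnd2. With the estimate subtracted, Icam1, Hp and H2-K1 kept their LPS calls at both ages, Gbp2 kept its call in young and Lrg1 and Muc1 kept theirs in old (the other ages were not followed for these), and Cd14 lost both (adjusted p = 0.08 and 0.065). Lower estimates were 3.0% to 7.06% for Orm1, 0.353% to 0.82% for Cp, 0.142% to 0.413% for Cxcl17, 0.726% to 1.57% for Irf7 and 6.17% to 13.1% for B2m.

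**Figure D4:**
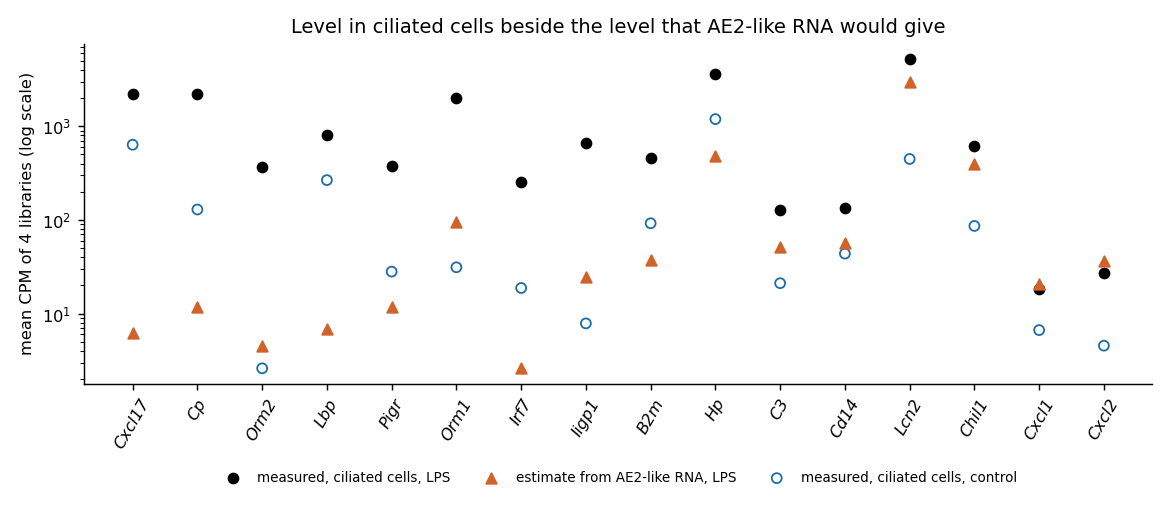
Mean CPM over 4 libraries on a log axis for 16 genes: measured in ciliated cells after LPS (filled points), the level that AE2-like RNA would give there (triangles) and measured in ciliated control cells (open points). The estimate comes close to the measured LPS level for Lcn2 and Chil1, lies above it for Cxcl1 and Cxcl2, and lies far under it for Cxcl17, Cp and Irf7.

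Genes that LPS and cytokine receptors act through rose in part. Of 20 NF-kappaB and Toll-like receptor pathway genes, 7 rose in young, 8 in old (3 without old control 1) and 9 over both ages, where 5.37%, 5.87% and 9.78% of all genes rose; DESeq2 gave 3, 3 and 8. The 9 were Cd14, Myd88, Relb, Nfkbia, Nfkbiz, Birc3, Icam1, Zc3h12a and Tnfrsf1a, and Il1r1 fell. Cd14 has the free RNA estimate given with Lcn2. Icam1, the adhesion receptor for leukocytes, was at 20.1 and 65.7 CPM in controls and 201 and 283 after LPS in young mice, and at 12.1 and 30.8 in controls and 195 and 195 after LPS in old mice. It rose by 2.74 ± 0.36 (SE, adjusted p = 5.7e-05) in young and 3.52 ± 0.37 (SE, adjusted p = 6.7e-06) in old. Nfkbia, the inhibitor that NF-kappaB induces, was at 185 and 159 CPM in controls and 486 and 454 after LPS in young mice, and at 59.4 and 96.3 in controls and 582 and 421 after LPS in old mice. It was lower in old than young controls (-1.31 ± 0.23 SE, adjusted p = 0.0061) and rose by 1.43 ± 0.19 (SE, adjusted p = 1.1e-06) in young and 2.85 ± 0.20 (SE, adjusted p = 4.1e-12) in old; the call in controls and the interaction of 1.41 ± 0.28 (SE, adjusted p = 0.021) were lost without young control 1 (adjusted p of the interaction 0.23) and without old control 1 (0.72).

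Of 21 STAT3 and cytokine signalling genes 10 rose in young (6 without young control 1), 8 in old (4 without old control 1, 5 without old LPS 1) and 10 over both ages, and none fell. Among all genes 5.37%, 5.87% and 9.78% rose. DESeq2 called 8, 4 and 10. Socs3, a feedback inhibitor of STAT3, was at 20.1 and 34.8 CPM in controls and 274 and 343 after LPS in young mice, and at 42.4 and 11.6 in controls and 407 and 303 after LPS in old mice. The rise was 3.6 ± 0.33 (SE, adjusted p = 1.1e-07) in young and 3.39 ± 0.27 (SE, adjusted p = 2.8e-08) in old. Cebpd, a transcription factor of the acute phase, was at 9.14 and 3.87 CPM in controls and 272 and 266 after LPS in young mice, and at 14.6 and 34.7 in controls and 298 and 193 after LPS in old mice. Its increase was 5.14 ± 0.40 (SE, adjusted p = 2.7e-10) in young and 3.67 ± 0.29 (SE, adjusted p = 7e-10) in old. Junb, an AP-1 subunit, was at 84.1 and 54.1 CPM in controls and 259.7 and 277 after LPS in young mice, and at 118 and 162 in controls and 378 and 253 after LPS in old mice. It rose by 1.87 ± 0.24 (SE, adjusted p = 3e-06) in young and 1.28 ± 0.20 (SE, adjusted p = 3.7e-05) in old. LPS and control libraries did not overlap for the 3 at either age.

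Most motile cilium genes did not pass the test for LPS. Over 9 lists of structural genes with 157 tested members (the rule genes left out), 5 rose and 18 fell in young, 7 rose and 2 fell in old, and 11 rose and 25 fell over both ages. Of all genes 5.37% rose and 3.33% fell in young, 5.87% and 3.35% in old, and 9.78% and 7.44% over both ages. The median log2 fold change of the 157 members was -0.10 in young and 0.02 in old. No member was called for age in controls, for age after LPS or for the interaction. Per cell, the summed list took medians, as a share of UMIs, of 4.49% and 4.27% in controls and 4.09% and 4.02% after LPS in young mice, and 4.49% and 4.48% in controls and 4.33% and 4.51% after LPS in old mice. Both young LPS libraries were lowest. The counts depend on the scaling and on single libraries: with library totals alone they were 3 and 22 in young, 5 and 11 in old and 9 and 37 over both ages, DESeq2 gave 4 and 5 over both ages, and leaving out 1 library gave 5 to 15 and 11 to 29, the fewest without old control 1.

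Foxj1, the master factor of motile cilia, was at 724 and 699.8 CPM in controls and 859 and 865 after LPS in young mice, and at 715 and 755 in controls and 847 and 832 after LPS in old mice; its log2 change of 0.27 ± 0.12 (SE, adjusted p = 0.2) in young and 0.20 ± 0.12 (SE, adjusted p = 0.37) in old did not pass, though no LPS library overlapped a control. Myb, which acts early in multiciliated differentiation, was at 221 and 217 CPM in controls and 142 and 116 after LPS in young mice, and at 209.8 and 212 in controls and 101 and 115 after LPS in old mice. It fell, with log2 fold changes of -0.74 ± 0.19 (SE, adjusted p = 0.0097) in young and -0.98 ± 0.17 (SE, adjusted p = 0.00011) in old; the call in young was lost without young control 1 (adjusted p = 0.11) and young LPS 2 (0.13). Nkx2-1, the lung epithelial transcription factor, was at 175 and 189 CPM in controls and 101 and 161 after LPS in young mice, and at 138 and 197 in controls and 92.1 and 103 after LPS in old mice. It fell in old (-0.71 ± 0.20 SE, adjusted p = 0.02), lost without old LPS 1 (adjusted p = 0.19) and old control 2 (0.24). LPS and control libraries did not overlap for either gene within an age. Rfx2 and Rfx3 did not pass.

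Among outer dynein arm genes 4 of 12 fell over both ages (Dnah11, Dnaic1, Nme9 and Dynll2) and none rose, where 7.44% of all genes fell and 9.78% rose. Dnaic1, an intermediate chain mutated in human ciliary dyskinesia, was at 188 and 155 CPM in controls and 105 and 119 after LPS in young mice, and at 166 and 173 in controls and 151 and 149.8 after LPS in old mice, with -0.41 ± 0.13 (SE, adjusted p = 0.027) over both ages; the call was lost without young control 1, young LPS 1, old control 1, old LPS 1 or old control 2, with adjusted p of 0.23 without young control 1. Nme9 was at 744 and 646 CPM in controls and 509 and 436 after LPS in young mice, and at 615 and 639.6 in controls and 498 and 559 after LPS in old mice. The fitted log2 change was -0.40 ± 0.09 (SE, adjusted p = 0.002). The inner arm gene Wdr78 was at 358 and 371 CPM in controls and 247 and 206 after LPS in young mice, and at 306 and 369.9 in controls and 275 and 289 after LPS in old mice. This gave a log2 change of -0.45 ± 0.11 (SE, adjusted p = 0.003), and the inner arm list had 3 lower members and 1 higher of 13. LPS libraries lay under the controls for all 3 named genes, and DESeq2 called none of the 3.

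The nexin-dynein regulatory complex, which holds neighbouring doublets together, had 3 lower members of 14 (Drc1, Lrrc23 and Ccdc39) and 1 higher over both ages (Drc7, lost without old control 1 or young LPS 2). Among all genes 7.44% fell and 9.78% rose. Drc1 was at 455 and 363 CPM in controls and 199 and 236 after LPS in young mice, and at 379.5 and 335 in controls and 280.3 and 253 after LPS in old mice. It fell over both ages (log2 change -0.69 ± 0.11 (SE, adjusted p = 1.6e-05)). Lrrc23 was at 303 and 271 CPM in controls and 182 and 131 after LPS in young mice, and at 292 and 262 in controls and 197 and 187 after LPS in old mice. Its log2 fold change was -0.70 ± 0.12 (SE, adjusted p = 4.6e-05). Both calls stood in all 18 alternatives. Ccdc39, a ruler of the axoneme repeat, was at 514 and 553 CPM in controls and 289 and 310.3 after LPS in young mice, and at 478 and 362 in controls and 420.4 and 359 after LPS in old mice. The fitted log2 change was -0.48 ± 0.10 (SE, adjusted p = 0.00094), lost without old control 1 (adjusted p = 0.065). LPS and control libraries were apart for Drc1 and Lrrc23 at both ages and for Ccdc39 in young, while in old Ccdc39 overlapped.

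Of 18 central pair genes 5 fell over both ages (Hydin, Spag17, Cfap69, Cfap74 and Ak7) and Cfap54 rose, where 7.44% of all genes fell and 9.78% rose. Spag17 was at 488 and 359.6 CPM in controls and 268 and 310.3 after LPS in young mice, and at 440.2 and 397 in controls and 328 and 349.5 after LPS in old mice. This gave a log2 change of -0.46 ± 0.11 (SE, adjusted p = 0.0022), lost without young control 1 (adjusted p = 0.082). Of 16 radial spoke genes Maats1 and Morn3 fell. Among 25 microtubule inner proteins and tektins 5 fell and 2 rose. Capsl, a calcium-binding protein of this list, was at 536 and 452 CPM in controls and 924 and 913 after LPS in young mice, and at 449.9 and 489 in controls and 991 and 843 after LPS in old mice. The rise was 0.88 ± 0.13 (SE, adjusted p = 1.5e-05) in young and 0.98 ± 0.13 (SE, adjusted p = 1.7e-06) in old, in all 18 alternatives and with no overlap of LPS and control libraries.

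Some genes of intraflagellar transport rose. Of 36 members 6 rose over both ages (Ift27, Ift46, Ift57, Ift172, Wdr19 and Arl6) and Arl3 fell, where 9.78% of all genes rose and 7.44% fell. With library totals alone 4 rose and 3 fell, without old control 1 it was 3 and none, and with DESeq2 it was 2 and none. Ift172, a subunit of the complex that carries cargo to the tip, was at 247 and 259 CPM in controls and 823 and 767 after LPS in young mice, and at 259 and 262 in controls and 786 and 613 after LPS in old mice. Its increase was 1.66 ± 0.15 (SE, adjusted p = 3.9e-10) in young and 1.43 ± 0.14 (SE, adjusted p = 5.5e-09) in old. Ift57 was at 362 and 406 CPM in controls and 503 and 462 after LPS in young mice, and at 338 and 304 in controls and 587 and 504 after LPS in old mice. Its log2 fold change was 0.55 ± 0.10 (SE, adjusted p = 9.6e-05) over both ages. Both calls stood in all 18 alternatives, and the LPS libraries lay above the controls. Hdac6, the tubulin deacetylase, was at 3.66 and 0 CPM in controls and 44 and 56.7 after LPS in young mice, and at 6.06 and 0 in controls and 63.6 and 26.5 after LPS in old mice; with 2 control UMIs in young its ratio was 18.9 (95% counting interval 4.9 to 161), and in old the log2 fold change was 3.39 ± 0.58 (SE, adjusted p = 0.00028).

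An X-box, the site read by RFX factors, is shown for one of the dynein genes because such sites mark cilium promoters. The letters GTTNC and GNAAC with 3 bases between, where N is any base, searched on both strands, lay in the 250 bases before the start of 15 of 148 cilium genes with a promoter entry (10.1%) and of 0.962% of all 27025. Rule genes were kept in this set, and Dynlrb2 and Fam183b are among the 15. In Dnaic1, at chr4:41569544-41569793 (plus strand) of GRCm38.p6, the match is in capitals.
Dnaic1: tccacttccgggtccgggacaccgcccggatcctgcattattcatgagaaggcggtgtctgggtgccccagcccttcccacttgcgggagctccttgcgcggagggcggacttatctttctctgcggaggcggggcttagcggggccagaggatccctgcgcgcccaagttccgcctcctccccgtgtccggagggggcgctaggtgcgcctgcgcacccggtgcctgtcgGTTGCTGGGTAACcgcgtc

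The rule genes are described without a test. Sec14l3, a lipid transfer protein, was at 3437 and 3453 CPM in controls and 1362 and 1417 after LPS in young mice, and at 3092 and 3283 in controls and 1130.3 and 1684 after LPS in old mice, with all LPS libraries under all controls. Ccdc153 was at 3153 and 2741 CPM in controls and 3179.8 and 2799 after LPS in young mice, and at 2863 and 2716 in controls and 2754 and 2946 after LPS in old mice. Dynlrb2 was at 2475 and 2548 CPM in controls and 2013 and 1972 after LPS in young mice, and at 2172 and 2262 in controls and 1838 and 2213 after LPS in old mice. A stricter rule of 5 of the 6 genes and 12 UMIs left the counts of calls within 1.5 times.

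Several metabolic and secretory genes of the airway fell. Of 43 antioxidant and xenobiotic metabolism genes 14 fell and 8 rose over both ages, where 7.44% of all genes fell and 9.78% rose. Cbr2, a lung carbonyl reductase, was at 6379.6 and 7613 CPM in controls and 1827 and 2062 after LPS in young mice, and at 5061 and 6026 in controls and 1306 and 1933 after LPS in old mice. It fell, with log2 fold changes of -1.85 ± 0.16 (SE, adjusted p = 8.3e-07) in young and -1.78 ± 0.16 (SE, adjusted p = 1.5e-06) in old. Cyp2f2, a cytochrome P450 of airway epithelium, was at 1519 and 1338 CPM in controls and 364 and 301 after LPS in young mice, and at 1442 and 1629.8 in controls and 336 and 566 after LPS in old mice. The fitted log2 change was -2.10 ± 0.22 (SE, adjusted p = 5.7e-05) in young and -1.79 ± 0.20 (SE, adjusted p = 0.00012) in old. Club cells are its main known source, and Scgb3a2, a club cell secretory gene, was at 96.9 and 54.1 CPM in controls and 12.6 and 14.9 after LPS in young mice, and at 86.1 and 69.4 in controls and 14.3 and 31.2 after LPS in old mice (-2.56 ± 0.44 SE, adjusted p = 0.0001, in young and -2.01 ± 0.32 (SE, adjusted p = 3.7e-05) in old; in young lost without young control 1, adjusted p = 0.061). The summed club or secretory markers overlapped between control and LPS libraries (5841 to 8352 and 6421 to 7739 CPM). Median Scgb1a1 shares per ciliated cell were 0.181% to 0.369% in controls and 0.156% to 0.193% after LPS. They were lower after LPS at each age in both lanes. The part of free club cell RNA in the Cyp2f2 and Scgb3a2 values was not tested.

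Among the antioxidant genes that rose, Prdx5, a peroxiredoxin, was at 1336 and 1338 CPM in controls and 3257 and 3043 after LPS in young mice, and at 1408 and 1460.3 in controls and 2939 and 2565 after LPS in old mice. This gave a log2 change of 1.24 ± 0.12 (SE, adjusted p = 9.7e-10) in young and 0.94 ± 0.11 (SE, adjusted p = 3.2e-07) in old. Fth1, the ferritin heavy chain, was at 7747 and 9171 CPM in controls and 14483 and 15527 after LPS in young mice, and at 8551 and 8649.9 in controls and 17865 and 16629.8 after LPS in old mice. Its log2 fold change was 0.83 ± 0.11 (SE, adjusted p = 9.2e-07) in young and 1.0 ± 0.11 (SE, adjusted p = 3.3e-08) in old, with a free RNA estimate of 9.25% to 16.1% of its LPS level. Gstm1, a glutathione transferase, was at 1654 and 1732 CPM in controls and 1116 and 1107 after LPS in young mice, and at 1841 and 1842 in controls and 858 and 1167 after LPS in old mice. The fitted log2 change was -0.61 ± 0.13 (SE, adjusted p = 0.0015) in young and -0.87 ± 0.13 (SE, adjusted p = 7.9e-06) in old. LPS and control libraries were apart for all 3.

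Cdkn1c, which encodes the cell cycle inhibitor p57, fell at both ages. It was at 426 and 476 CPM in controls and 12.6 and 47.7 after LPS in young mice, and at 371 and 466 in controls and 21.4 and 45.2 after LPS in old mice. The log2 fold changes were -4.02 ± 0.40 (SE, adjusted p = 5.8e-05) in young and -3.79 ± 0.33 (SE, adjusted p = 2e-05) in old. AE2-like cells of the same libraries held 2.16 to 7.06 CPM. Abca1, the cholesterol exporter, was at 60.3 and 42.5 CPM in controls and 0 and 5.97 after LPS in young mice, and at 54.6 and 57.8 in controls and 0.649 and 4.68 after LPS in old mice; with 2 UMIs in young LPS its ratio was 0.043 (95% counting interval 0.00505 to 0.165), and in old the log2 fold change was -4.76 ± 0.54 (SE, adjusted p = 1.1e-07). Notch1, the receptor whose signal holds airway progenitors from the ciliated fate, was at 45.7 and 61.9 CPM in controls and 14.7 and 5.97 after LPS in young mice, and at 47.3 and 61.6 in controls and 9.08 and 26.5 after LPS in old mice. This gave a log2 change of -2.0 ± 0.32 (SE, adjusted p = 2.4e-05) over both ages. Dcdc2a, a doublecortin protein, was at 205 and 201 CPM in controls and 39.8 and 44.8 after LPS in young mice, and at 213 and 223 in controls and 49.3 and 85.8 after LPS in old mice. Its log2 fold change was -2.27 ± 0.27 (SE, adjusted p = 1.3e-07) in young and -1.79 ± 0.20 (SE, adjusted p = 9.9e-08) in old. No LPS library reached a control library for these 4 genes.

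**Figure D5:**
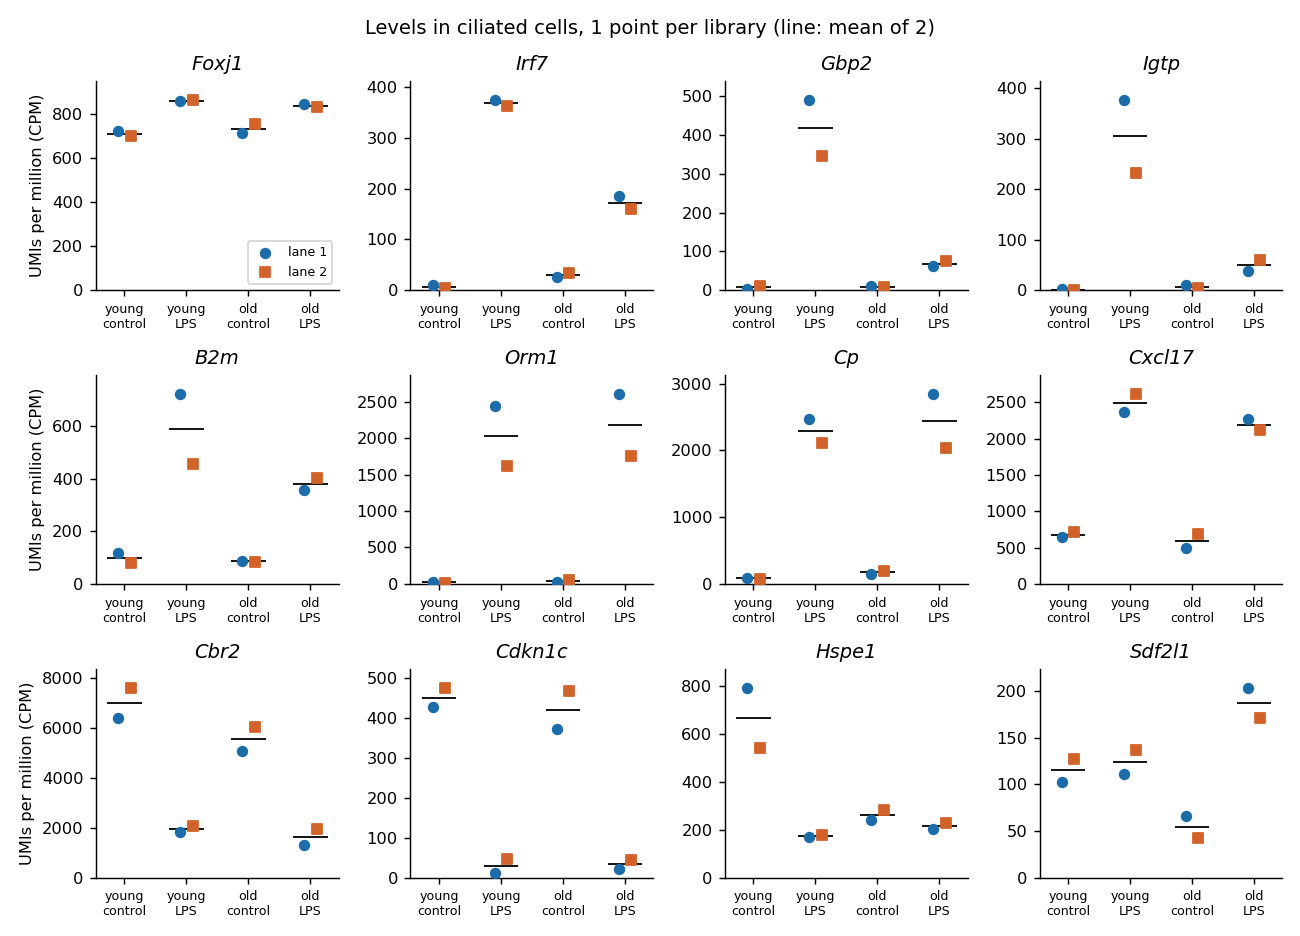
TMM-scaled CPM of 12 genes in ciliated cells, 1 point per library, with the group mean as a line and lanes by colour and marker; each panel has its own axis from 0. Irf7, Gbp2 and Igtp are highest in young LPS, Orm1, Cp and Cxcl17 rise at both ages, Cbr2 and Cdkn1c fall at both, and Hspe1 is high in young controls alone.

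Several heat shock genes fell with LPS, and Hspe1 and Hsph1 were higher in young than in old controls. Of 22 immediate-early and heat shock genes 5 rose and 6 fell in young, and 3 rose and 3 fell in old. Among all genes 5.37% rose and 3.33% fell in young, and 5.87% rose and 3.35% fell in old. The 6 were Hsph1, Dnaja1, Hsp90aa1, Hsp90ab1, Hspe1 and Hspd1, and the 3 were Hsph1, Hsp90ab1 and Hspd1; without old control 2 none fell in old, and without old control 1 it was 1. The interaction was called for Hspe1 and Hsph1 alone of the 22, both positive, where 0.0901% of all genes were called in that direction (7). Hspe1, the mitochondrial co-chaperonin, was at 792 and 541 CPM in controls and 168 and 176 after LPS in young mice, and at 241 and 281 in controls and 202 and 226 after LPS in old mice. It fell with LPS in young (-1.99 ± 0.17 SE, adjusted p = 3e-10) and did not pass in old (-0.27 ± 0.17 SE, adjusted p = 0.38), and the interaction was 1.72 ± 0.24 (SE, adjusted p = 0.00039), called in all 18 alternatives. In controls it was lower in old (-1.41 ± 0.16 SE, adjusted p = 6.8e-06), where 0.103% of all genes were lower (8) and 0.219% higher (17). Hsph1, a disaggregase of the HSP110 family, was at 583 and 472 CPM in controls and 94.3 and 119 after LPS in young mice, and at 286 and 335 in controls and 167 and 228 after LPS in old mice, with an interaction of 1.68 ± 0.26 (SE, adjusted p = 0.0011) that was lost without old control 1 (adjusted p = 0.056).

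Hsp90aa1, the inducible HSP90, was at 8398 and 5451 CPM in controls and 1864 and 1963 after LPS in young mice, and at 4041 and 4373 in controls and 2128 and 2941 after LPS in old mice. It fell in young (-1.86 ± 0.22 SE, adjusted p = 0.00077); in old the value was -0.73 ± 0.21 (SE, adjusted p = 0.074) and the interaction 1.13 ± 0.30 (SE, adjusted p = 0.42). For Hspe1, Hsph1 and Hsp90aa1 both young controls lay above all other libraries. AE2-like cells of the same libraries held Hspe1 at 153 and 152 CPM in controls and 139 and 157 after LPS in young mice, and at 153 and 139 in controls and 178 and 184 after LPS in old mice, without TMM scaling. Their levels of Hsp90aa1 were 203 to 297 CPM. What set these 2 young control libraries apart was not tested.

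The heat shock element, GAA, TTC and GAA with 2 bases between neighbours, on either strand, lay in the 250 bases before the start of 2 of 23 genes of the immediate-early and heat shock list (8.7%), Hspe1 and Hspd1, and of 0.514% of all genes. Hspe1 is shown with its matches in capitals, at chr1:55087898-55088147 (plus strand) of GRCm38.p6.
Hspe1: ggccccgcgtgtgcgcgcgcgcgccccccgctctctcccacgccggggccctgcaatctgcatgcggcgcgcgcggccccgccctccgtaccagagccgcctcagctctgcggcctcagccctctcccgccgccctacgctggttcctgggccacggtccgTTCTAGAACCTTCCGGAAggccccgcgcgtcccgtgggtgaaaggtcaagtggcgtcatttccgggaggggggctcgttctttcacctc

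Genes of the unfolded protein response rose in old mice and over both ages. Of 23 endoplasmic reticulum genes 2 rose and 1 fell in young, 14 rose in old, and 12 rose and 1 fell over both ages, where 5.37%, 5.87% and 9.78% of all genes rose. The count in old was 6 without old control 1, 8 without old LPS 1 or old control 2 and 7 with DESeq2, which gave 6 over both ages. The interaction was called for 2, both positive, where 0.0901% of all genes were called in that direction (7). Sdf2l1, a stress-induced chaperone partner, was at 102 and 128 CPM in controls and 111 and 137 after LPS in young mice, and at 66.7 and 42.4 in controls and 204 and 172 after LPS in old mice. It rose in old (1.67 ± 0.21 SE, adjusted p = 6.1e-07), with 0.13 ± 0.23 (SE, adjusted p = 0.82) in young and an interaction of 1.53 ± 0.32 (SE, adjusted p = 0.021). Hsp90b1, the chaperone GRP94, was at 1528 and 1744 CPM in controls and 1202 and 1032 after LPS in young mice, and at 1136 and 1237 in controls and 1662 and 1469.8 after LPS in old mice, with an interaction of 0.95 ± 0.17 (SE, adjusted p = 0.0077). The interaction call for Sdf2l1 was lost when any of the 4 control libraries or young LPS 1 was left out, and without old control 1 the interaction adjusted p for Sdf2l1 and Hsp90b1 was 0.12 and 0.23. Old controls were the lowest group for Sdf2l1.

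Manf, a secreted stress factor, was at 366 and 499 CPM in controls and 524 and 624 after LPS in young mice, and at 285 and 277 in controls and 653 and 546 after LPS in old mice. It rose over both ages by 0.76 ± 0.11 (SE, adjusted p = 1.9e-06). Xbp1, the transcription factor of this response, was at 60.3 and 65.7 CPM in controls and 419 and 492 after LPS in young mice, and at 77.6 and 77.1 in controls and 666 and 387 after LPS in old mice. It rose by 2.86 ± 0.27 (SE, adjusted p = 1.4e-06) in young and 2.79 ± 0.24 (SE, adjusted p = 5.2e-07) in old. LPS libraries lay above controls at both ages for each. Over the 74 oxidative phosphorylation genes 2 rose and 5 fell over both ages (1 and 1 without old LPS 1 or old control 2), shares under those of all genes, 9.78% and 7.44%. Of 13 mitochondrially encoded genes 2 fell.

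Age by itself changed few genes. In controls 17 genes were higher in old (0.219% of those tested) and 8 lower (0.103%), and after LPS 20 were higher (0.257%) and 68 lower (0.875%). C130026I21Rik, a gene with near-identical copies, was at 5.48 and 3.87 CPM in controls and 8.38 and 11.9 after LPS in young mice, and at 95.8 and 69.4 in controls and 53.2 and 98.3 after LPS in old mice; its old minus young log2 difference was 4.08 ± 0.52 (SE, adjusted p = 2.9e-05) in controls and 2.82 ± 0.44 (SE, adjusted p = 0.00015) after LPS, called in every alternative that tested it. Reads of its copies cannot be told apart, so the gene's name is uncertain.

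Bbox1, the last enzyme of carnitine synthesis, was at 34.7 and 30.9 CPM in controls and 29.3 and 29.8 after LPS in young mice, and at 80.0 and 112 in controls and 91.5 and 103 after LPS in old mice, with differences of 1.42 ± 0.30 (SE, adjusted p = 0.025) in controls and 1.69 ± 0.29 (SE, adjusted p = 0.00037) after LPS; the difference in controls was lost when any of the 4 control libraries was left out, with adjusted p of 0.26 without young control 1. Cidea, a lipid droplet protein, was at 47.5 and 34.8 CPM in controls and 81.7 and 86.5 after LPS in young mice, and at 97 and 116 in controls and 158 and 169 after LPS in old mice (1.25 ± 0.27 SE, adjusted p = 0.025, in controls, also lost when any control library was left out, and 0.95 ± 0.20 (SE, adjusted p = 0.0066) after LPS, lost without young LPS 1 with adjusted p of 0.22). Dkkl1 was higher in old after LPS by 1.60 ± 0.25 (SE, adjusted p = 0.00015). Old libraries lay above young ones for Bbox1 at each treatment.

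Ccnd2, a cyclin, ran the other way, at 112 and 151 CPM in controls and 33.5 and 110.4 after LPS in young mice, and at 4.85 and 3.85 in controls and 9.73 and 1.56 after LPS in old mice. The old minus young difference was -4.72 ± 0.71 (SE, adjusted p = 0.022) in controls and -3.18 ± 0.62 (SE, adjusted p = 0.033) after LPS, and both calls were lost when any of the 4 control libraries was left out (adjusted p = 0.67 in controls without old control 1). Young and old libraries did not overlap. AE2-like cells held Ccnd2 at 44.8 and 41.3 CPM in controls and 22.4 and 19.3 after LPS in young mice, and at 28.4 and 28.5 in controls and 9.27 and 10.7 after LPS in old mice, also lower in old at each treatment, which was not tested. Fos and Jun, immediate-early genes, were higher in old controls, with Fos at 82.3 and 128 CPM in controls and 404 and 251 after LPS in young mice, and at 349 and 335 in controls and 376 and 254 after LPS in old mice. The old minus young difference in controls was 1.79 ± 0.29 (SE, adjusted p = 0.022); its call was lost when any of the 4 control libraries was left out (adjusted p = 0.33 without young control 1). Jun lost its call without young control 1 (adjusted p = 0.29), old control 1 (0.47) or old control 2 (0.24).

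The response was also set against that of other cells in the same libraries, with library as a term in the fit. Against AE2-like cells 1044 of 12254 genes (8.52%) had a more positive log2 LPS change in ciliated cells and 882 (7.2%) a more negative one. With free AE2 RNA subtracted the counts were 1011 and 863. Muc1 went from 15.3 to 183 CPM in ciliated cells and from 555 to 544 CPM in AE2-like cells, a difference of 3.75 ± 0.22 (SE, adjusted p = 1.6e-62). Socs3 went from 27.3 to 313 CPM in ciliated cells and from 65.8 to 89.5 CPM in AE2-like cells (3.07 ± 0.20 SE, adjusted p = 4.7e-51). Cebpd differed by 2.73 ± 0.25 (SE, adjusted p = 1e-24). Sod2, the mitochondrial superoxide dismutase, went from 452 to 500.4 CPM in ciliated cells and from 180.3 to 1699 CPM in AE2-like cells (-2.97 ± 0.13 SE, adjusted p = 6.2e-117). Fth1 went from 8538 to 15202 CPM in ciliated cells and from 3813 to 52224 CPM in AE2-like cells (-2.80 ± 0.11 SE, adjusted p = 2e-150). The interferon list had 19 of 55 members with a more negative change in ciliated cells and none with a more positive one, with a median difference of -1.08 against 0.07 over all genes. The acute phase list had 10 more positive and 4 more negative of 27. Of the mitochondrially encoded genes 9 had a more positive change, and of the oxidative phosphorylation genes 37 a more negative one.

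Against the 143 club-like cells the test had less depth. Control libraries held 4 to 16 club-like cells each and LPS libraries 9 to 58, so club-like control levels rest on few cells. In this test 54 of 6580 genes (0.821%) had a more positive and 40 (0.608%) a more negative change in ciliated cells. This split was unstable: it was 83 and 38 with RLE factors, 34 and 34 with free RNA subtracted, 21 and 40 without young control 1, 23 and 28 without old control 1, and 34 and 36 without young LPS 2. Ccl20, a chemokine for dendritic and T cells, went from 9.47 to 70.5 CPM in ciliated cells and from 10.4 to 3852 CPM in club-like cells (-5.95 ± 0.57 SE, adjusted p = 8.5e-17). Lgals3, a secreted lectin, differed by 4.15 ± 0.46 (SE, adjusted p = 3e-16) and Idh1 by 3.69 ± 0.57 (SE, adjusted p = 3.6e-08). Of 45 interferon genes 1 was called, Rtp4, which went from 76.8 to 311 CPM in ciliated cells and from 0 to 52.4 CPM in club-like cells; with no UMI in club-like controls its fitted difference is set by the prior count. The median difference was -1.11 against -0.214 over all genes. Club-like cells held Cxcl17 at 363 and 44 CPM in controls and 623 and 489 after LPS in young mice, and at 154 and 122 in controls and 448 and 391.9 after LPS in old mice. Cp was at 257 and 161 CPM in controls and 1382 and 1019 after LPS in young mice, and at 211 and 178 in controls and 1424 and 1331 after LPS in old mice, without TMM scaling and with no test of their own.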

How the data were processed

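Droplet libraries (10x Chromium 3' v3) were demultiplexed with bcl2fastq, counted with Cell Ranger 3.1.0, which runs STAR, on mm10, and handled in R 3.6.3 with Seurat 3.1 and 3.1.5, per the submitters' processing notes. The deposited tables hold UMI counts per gene and barcode, 1 table per group and lane, with hashtags already assigned. How doublets were treated is not given in the sources used here, and no doublet caller was run. Of 31053 gene IDs 30934 matched a symbol. Members, gene lists and tests were chosen with earlier results of these data known.

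Ciliated UMIs were summed per library. Counts were fitted with edgeR 4.0.16 (R 4.3.3), TMM scaling, filterByExpr and the robust quasi-likelihood test over all 8 libraries, with Benjamini-Hochberg adjustment over the 7770 genes tested of 16029 with a UMI. All adjusted p-values come from this test unless another is named. The SE is the log2 fold change divided by the root of F and is approximate. The class comparison fitted library, class and class by LPS. Other tools were DESeq2 1.42.0, limma 3.58.1, Python 3.11.15, numpy 2.4.6, pandas 2.3.3 and scipy 1.17.1. The fits were tested on simulated data. CPM is a share of all UMIs of a library scaled to a common total, with TMM factors for single genes. Genes at 3 or fewer control UMIs are given as ratios.

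Lane was not in the fit. Same-numbered libraries shared a pooled lane, per the labels, and their residuals correlated at 0.00527 to 0.0410 within lane 1. Genes named were, per comparison, the 12 called genes with the largest change in each direction at 50 CPM or more that moved one way in each lane, the 4 most abundant called members of each of 26 lists, the 10 interaction genes of smallest p, the rule and marker genes and the genes of the closing section, of which 1 is not reported here. A few further list members are named from counts, after their values were seen. Alternatives were lane as a block, RLE factors, library totals, DESeq2, no filter, each library left out, stricter limits on Sftpc, rule genes and mitochondrial share, removal of high-UMI and immune-marker cells, and subtraction of estimated free AE2 RNA. Promoters are from RefSeq (GRCm38.p6).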

Additional observations from a re-analysis of the deposited data

Results flagged for a closer look

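The age by LPS interaction was called for 19 genes, each given as the log2 LPS change in old minus that in young. Larger in old were Hspe1 (1.72), Hsph1 (1.68), Hsp90b1 (0.95), Nfkbia (1.41), Crip1 (0.86), Stip1 (1.20) and Sdf2l1 (1.53). Hspe1, Hsph1, Hsp90b1, Crip1 and Stip1 had negative changes in young, so a positive value there is a smaller decrease or an increase in old. Among those more negative in old were Irf7 (-3.0), Id1 (-1.08), Ifit3b (-5.94), Id3 (-1.65), Ifi47 (-2.10), Rtp4 (-1.35), Oasl2 (-2.78), Igtp (-5.30), Irf1 (-2.23), Irgm1 (-2.81) and Psmb9 (-3.21). Id1 and Id3, targets of BMP signalling, fell with LPS in old, by log2 changes of -0.85 ± 0.15 (SE, adjusted p = 0.00014) and -1.77 ± 0.23 (SE, adjusted p = 1.7e-06). In young they were not called, at 0.23 ± 0.16 (SE, adjusted p = 0.46) and -0.12 ± 0.25 (SE, adjusted p = 0.86). Igtp and Ifit3b each had 1 UMI in young controls, so their fitted values depend on the prior count, and Ifit3b has a near-identical copy. Hspe1 was the one interaction among those followed that was called in all 18 alternatives.

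Differences in the log2 LPS response between ciliated and AE2-like cells of the same libraries were tested for all genes. The value is the change in ciliated cells minus that in the other cells, so its sign does not say in which cells the change was larger. More positive in ciliated cells were Idh1 (4.94), Retnla (4.38), Muc1 (3.75), Socs3 (3.07), Vpreb3 (2.92), Rnase4 (2.80), Cyp51 (2.80), Cebpd (2.73), Tppp3 (2.73) and Aldh1a7 (2.62). Vpreb3 went from 888 to 611 CPM in ciliated cells and from 39.1 to 3.94 CPM in AE2-like cells, and Tppp3 from 3633 to 3179.9 CPM in ciliated cells and from 33.2 to 4.86 CPM in AE2-like cells. More negative were Usp18 (-4.16), Ly6a (-3.40), Ehd1 (-3.35), Dmkn (-3.24), Sod2 (-2.97), Abca1 (-2.92), Fth1 (-2.80), Fas (-2.51), Ahsa2 (-2.51) and Ly6c1 (-2.44). Abca1 went from 53.9 to 2.66 CPM in ciliated cells and from 10.0 to 3.52 CPM in AE2-like cells, and Ahsa2 from 62.3 to 12.1 CPM in ciliated cells and from 11.1 to 11.3 CPM in AE2-like cells. Against club-like cells the more positive ones were Ltf (5.60), Cyp2a5 (4.80), Lgals3 (4.15), Idh1 (3.69) and Sult1d1 (3.06), and the more negative ones Rtp4 (-6.95), Ccl20 (-5.95), Prom1 (-5.78), Fas (-5.24) and Acot1 (-5.0). Cyp2a5 went from 213 to 171 CPM in ciliated cells and from 75.5 to 2.82 CPM in club-like cells, and Acot1 from 652 to 256 CPM in ciliated cells and from 4.39 to 21.8 CPM in club-like cells. Rtp4 had no UMI in club-like controls, so its value is set by the prior count, and those of other genes with few UMIs in 1 class depend on it. The estimate of free AE2 RNA in ciliated droplets was higher after LPS (0.599% to 0.898% of the AE2-like level in controls, 2.48% to 5.09% after LPS). It may hold RNA of droplets mixed with an AE2 cell, which was not tested. With it subtracted, 1011 genes were more positive and 863 more negative against AE2-like cells (1044 and 882 without), and 34 and 34 against club-like cells (54 and 40).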

How the results depend on the processing

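No single gene that was called changed sign under the alternatives run for it. The share difference between LPS and control, which was not called, ranged from -1.27 to 2.24 points with 1 library left out. The balance of higher and lower calls did turn: with library totals to 365 and 440 in old (456 and 260), 614 and 841 over both ages (760 and 578) and 5 and 11 for motile cilium genes in old (7 and 2); with DESeq2 to 2 and 4 for age in controls (17 and 8) and 7 and 6 for the interaction (7 and 12), which was 5 and 1 without young control 1; and against club-like cells as given there. The share difference by age ranged from 0.0285 to 3.96 points. With DESeq2 the genes called were 279 in young (676 with edgeR), 230 in old (716), 510 over both ages (1338), 6 for age in controls (25) and 18 for age after LPS (88). Without a filter on low counts age gave 57 in controls and 135 after LPS, and the interaction 51 (19). Without high-UMI and immune-marker cells age in controls gave 16 and the interaction 7. AE2-like cells taken by Sftpc gave 1266 class differences (1926).

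Leaving out 1 library gave 343 to 807 calls in young (fewest without young control 1), 271 to 892 in old (fewest without old control 1, then old LPS 1 with 374 and old control 2 with 475), 887 to 1500 over both ages, 4 to 53 for age in controls and 2 to 46 for the interaction (fewest of each without old control 1), and 32 to 137 for age after LPS (fewest without young LPS 1). The class differences numbered 1272 to 2034 against AE2-like and 51 to 92 against club-like cells, fewest without old control 1. Among single genes, 6593 gene and setting pairs kept their status, which includes genes called in neither fit. A call was lost in 731 pairs and gained in 4, with 129 of the losses under DESeq2 and 26 with free RNA subtracted.

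With lane as a replicate block, the calls were 717 in young, 771 in old, 1392 over both ages, 30 and 93 for age in controls and after LPS and 25 for the interaction. Exact permutation within lanes, the block for shares, kept the differences of 0.988 and 2.10 points (p = 0.722 and 0.333). Libraries with 50 and 53 ciliated cells limit the precision of the controls of lane 2.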
